A study of Mus musculus with 6 samples.

Results

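The genes examined here code for the V-ATPase, its Ragulator partner, the LAMP proteins and the cathepsins of the lysosome. They were taken from the deposited expression matrix by name, as every Ensembl gene whose symbol begins with Atp6v or Atp6ap, is Lamp or Lamtor followed by a digit, or is Cts followed by a single letter. This gave 53 genes of the 53700 Ensembl genes and 60193 genes and loci listed, and 3 names that mark pseudogenes were left out. All 53 are annotated as protein coding. The oocytes came from ICR mice aged 42 to 45 weeks, used as a model of advanced reproductive age, and the question was how maturation in vitro (IVM) differs from maturation in vivo (IVO). Each group held 3 pools, and each pool held 20 metaphase II (MII) oocytes from 3 mice. The IVM mice received PMSG alone, and their germinal vesicle oocytes were stripped of cumulus cells and cultured in M16 medium for 12 h. The IVO mice received PMSG and then hCG, and their ovulated oocytes were flushed from oviducts 14 h after the hCG injection and freed of cumulus cells with hyaluronidase. The groups therefore differed in hCG, in the presence of cumulus cells during maturation and in the timing of collection as well as in the site of maturation, and these cannot be told apart. RNA was amplified as full-length cDNA, and expression is given as FPKM, a fragment count scaled to gene length and to sequencing depth, so that levels can be compared between genes.

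The V-ATPase is a rotary proton pump that acidifies lysosomes, endosomes and secretory granules. Its V1 domain hydrolyses ATP on the cytosolic face, and its V0 domain carries protons through the membrane. Ragulator anchors the Rag GTPases to the lysosome, where mTORC1 senses amino acids together with the pump, and the cathepsins are proteases and peptidases that work mostly in the acidic lumen. Maturing oocytes carry few new transcripts, because transcription is largely silent from the end of growth, so their mRNA levels generally depend on storage, polyadenylation and decay. The amplification used here primes on poly(A) tails, whose length was not measured.

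Genes of the lysosome often carry a palindromic E-box motif in their promoters, known as the CLEAR motif and bound by TFEB and related factors. The promoters that hold its core TCACGTGA are shown because they tell which members carry this lysosomal signature. RefSeq promoter windows on GRCm38.p6, running from 250 bases before to 50 bases after an annotated start, were found for 41 of the 53 members. The 8-base core, which reads the same on both strands, was present in 5 of the 41 (12.2%, 95% Wilson interval 5.32 to 25.5), against 304 of 27025 genes (1.12%) with such a window. The shorter E-box CACGTG, which lies within the core, was found in 11 of the 41 (26.8%) and in 8.09% of all genes with a window. The motif is known from lysosomal genes, so a higher share among these members is no independent result. Each sequence below is written 5′ to 3′ on the strand of its gene, with the core in capitals.
Atp6v1a: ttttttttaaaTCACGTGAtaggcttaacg
Atp6v0e: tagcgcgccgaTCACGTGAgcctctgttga
Atp6v0d1: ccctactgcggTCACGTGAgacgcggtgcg
Ctsa: tgTCACGTGAtgcagatgcTCACGTGAcc
Ctsd: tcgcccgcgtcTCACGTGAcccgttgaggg
These stretches lie at chr16:44139373-44139402 (minus strand), chr17:26676387-26676416 (plus), chr8:105566050-105566079 (minus), chr2:164833758-164833786 (plus) and chr7:142387908-142387937 (minus), in that order. The core began 132 bases before the annotated start in Atp6v1a and 99 bases before it in Ctsd, 4 bases before it in Atp6v0d1 and 2 bases after it in Atp6v0e. Ctsa held the core at 2 places, 13 bases before and 4 bases after the start, in 1 of its 2 annotated windows. Of these 5 genes, Atp6v1a, Atp6v0e and Ctsa were called lower in IVO as described next, and Atp6v0d1 and Ctsd were not called. The share called lower was 26.5% of the tested members and 17.9% of everything tested.

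Of the 53 members, 34 averaged 1 FPKM or more across the 6 pools and were tested with limma on log2(FPKM + 1), with p-values adjusted over all 18818 genes and loci tested. A gene was called when its log2 fold change (log2FC, IVO minus IVM) was at least 1 in size and its adjusted p was under 0.05. As deposited, 9 of the 34 (26.5%) were called lower in IVO, where 17.9% of everything tested and 14.6% of the Ensembl genes tested were called lower. They were the V1 genes Atp6v1g1, Atp6v1f and Atp6v1a, the V0 genes Atp6v0a4 and Atp6v0e, the Ragulator genes Lamtor1, Lamtor4 and Lamtor5, and Ctsa. None of the members was called higher in IVO, against 0.606% of everything tested. All 3 IVO pools lay below all 3 IVM pools in 15 members (44.1%, against 32.6% of everything tested) and above them in 3 (8.82%, against 9.62%).

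The median log2FC was -0.62 over the 34 tested members and -0.30 over everything tested, so the whole distribution lay towards IVM, and 22 of the 34 members lay below that general median. Scaling the libraries by median ratios moved the general median to -0.04, and 5 of the 34 members (14.7%) were then called, against 11.3% of everything tested. The 5 were Atp6v1g1, Atp6v1f, Atp6v0a4, Lamtor1 and Ctsa. Under that scaling Lamtor4, Lamtor5, Atp6v1a and Atp6v0e kept an adjusted p under 0.05, but at log2FC of -0.88, -0.85, -0.84 and -0.81 they missed the fold threshold. Under median-ratio scaling 12 of 34 members had a positive log2FC, compared with 9 of 34 as deposited.

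**Figure D1:**
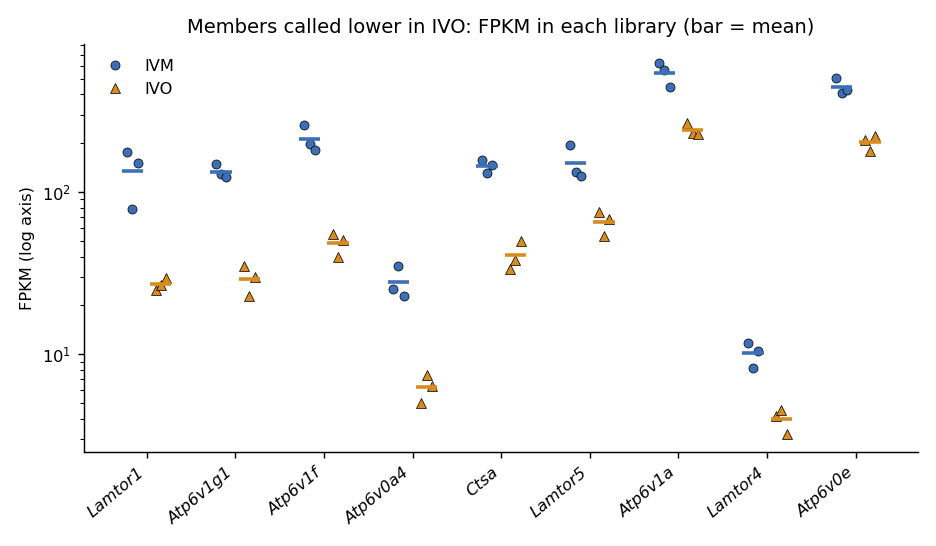
FPKM on a log axis of the 9 members called lower in IVO, with 1 point for each pool (circles for IVM, triangles for IVO) and a bar at the mean of each group. In each of the 9 genes the 3 IVO pools sit below the 3 IVM pools, and the genes range from 3.24 FPKM in 1 IVO pool (Lamtor4) to 627.97 FPKM in 1 IVM pool (Atp6v1a).

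The V1 domain was uneven. Of the 14 genes placed there by symbol, 9 were tested. Of these, 3 were called lower in IVO and 4 had a positive log2FC, and the median log2FC was -0.17. The share called lower over everything tested was 17.9%. Atp6v1g1, the G subunit of the peripheral stalk (chr4:63462886-63471651 on GRCm39, like the gene coordinates that follow), measured 148.73, 129.36 and 122.97 FPKM in the IVM pools and 34.84, 22.93 and 30.14 in the IVO pools. Its IVM mean was 4.56 times its IVO mean (log2FC -2.17 ± 0.21 SE, n = 3 pools a group, limma adjusted p = 0.00146). Atp6v1f, the F subunit of the central rotor (chr6:29467717-29470513), stood at 260.07, 197.18 and 181.62 FPKM in IVM and at 55.34, 39.79 and 50.96 in IVO (log2FC -2.10 ± 0.22 SE, limma adjusted p = 0.00174). The IVM pools of both small subunits were all well above the IVO pools.

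Atp6v1a, the A subunit that carries the catalytic sites (chr16:43887852-43960076), had the highest IVM level of all members. In IVO the means of Lamtor3 (264 FPKM), Lamtor2 (255) and Atp6v1h (254) were above its own (241). Its 3 IVM pools held 627.97, 564.92 and 442.01 FPKM and its IVO pools 264.85, 229.65 and 229.39 (log2FC -1.16 ± 0.18 SE, limma adjusted p = 0.00604). The groups did not overlap, and the IVO pools were close to each other. Of the 12429 exonic bases of Atp6v1a, 564 are shared with Naa50 on the opposite strand, which was listed at 70.32 to 88.99 FPKM. The kit does not mark strand, so reads from the shared bases cannot be assigned, and the same holds for the other opposite-strand overlaps given here.

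The partner of subunit A in the catalytic ring, subunit B, came from Atp6v1b2 alone, since Atp6v1b1, the form of kidney and other acid-secreting epithelia, was listed at 0 in all 6 pools. Atp6v1b2 measured 25.88, 18.35 and 29.71 FPKM in IVM and 25.81, 19.13 and 19.87 in IVO, and the groups overlapped (log2FC -0.17 ± 0.24 SE, limma adjusted p = 0.662). The A and B proteins stand in equal number in the pump. The ratio of Atp6v1a to Atp6v1b2 FPKM, from which a scaling factor of the library cancels, was 24.3, 30.8 and 14.9 in IVM and 10.3, 12.0 and 11.5 in IVO. All IVM ratios were above all IVO ratios (23.3 ± 8.0 against 11.3 ± 0.903, mean ± SD, n = 3 pools). With 3 pools a side, however, the smallest two-sided p of an exact permutation test is 0.1. The ratio sets a called gene against one that was not called, so it is no separate evidence.

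Atp6v1h, the regulatory H subunit that links V1 to V0 (chr1:5089010-5234940), had the most positive log2FC of the domain. It was listed at 205.29, 258.4 and 157.25 FPKM in IVM and at 254.33, 248.41 and 260.13 in IVO (log2FC 0.32 ± 0.21 SE, limma adjusted p = 0.309). The IVO pools were tightly grouped and fell within the IVM range, apart from 1 pool just above it. Atp6v1c1, the C subunit that joins the stalks and leaves the pump when it comes apart, measured 86.25, 73.57 and 90.38 FPKM in IVM and 99.6, 92.7 and 98.09 in IVO. Its IVO values were all above its IVM values, with a log2FC of 0.22 ± 0.17 SE that did not pass the test (limma adjusted p = 0.397). Atp6v1e1, a stalk subunit, had a log2FC of -0.32 ± 0.20 SE, and Atp6v1d, a rotor subunit, had 0.11 ± 0.24 SE. Of the 7583 exonic bases of Atp6v1d, 958 are shared with Pals1 and 727 with Eif2s1, both on the opposite strand. Pals1 was listed at 24.45 to 37.75 FPKM, and Eif2s1 at 12.27 to 17.06 in IVM and 31.07 to 45.17 in IVO. Atp6v1d itself was at 10.41 to 16.86 FPKM.

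The remaining V1 genes were low. Atp6v1c2, the second C gene, was listed at 1.81 to 2.63 FPKM and made 1.88% to 2.76% of the summed FPKM of the C genes. It shares 365 of its 2868 exonic bases with Pdia6 on the opposite strand, listed at 11.31 to 18.55 FPKM. Atp6v1g2 and Atp6v1e2, the brain form of G and the testis form of E, were below the test's filter, with no pool above 0.13 FPKM. Atp6v1g3 was at 0 throughout, as were Atp6v1b1 and Atp6v1fnb, a gene beside Atp6v1f that was placed here by its symbol alone. The B, C, E and G subunits therefore each rested almost entirely on a single gene in both groups.

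**Figure D2:**
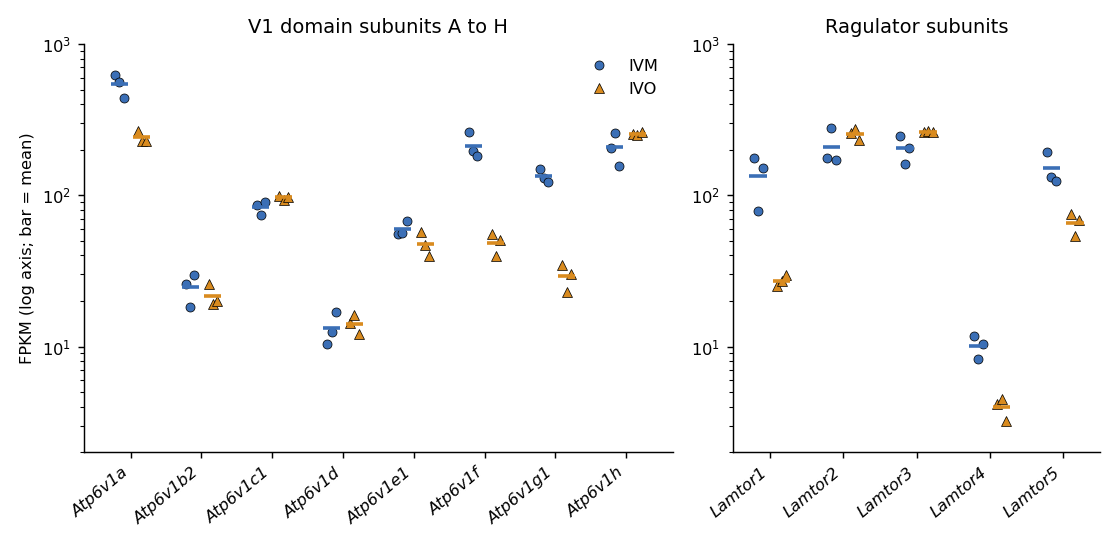
FPKM on a log axis of the main gene of each V1 subunit, A to H (left), and of the 5 Ragulator genes (right), with 1 point for each pool and a bar at the group mean. Atp6v1a, Atp6v1f, Atp6v1g1, Lamtor1, Lamtor4 and Lamtor5 are lower in all 3 IVO pools, whereas the pools of Atp6v1b2, Atp6v1d, Atp6v1e1, Atp6v1h and Lamtor2 overlap.

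Of the 9 V0 genes, 8 were tested and 2 of them, Atp6v0a4 and Atp6v0e, were called lower in IVO. The 8 had a median log2FC of -0.76 as deposited and -0.49 under median-ratio scaling. As deposited none of the 8 tested V0 genes had a positive log2FC, but that of Atp6v0a2 turned to 0.23 under median-ratio scaling. In 5 of the 8, all IVO pools lay below the IVM pools. Of everything tested, 32.6% lay so and 17.9% was called lower, with a median log2FC of -0.30. The summed FPKM of the domain was 781, 557 and 673 in IVM and 325, 297 and 324 in IVO, and most of it came from Atp6v0e.

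Subunit a, which forms the proton channels and places the pump in a given membrane, held the largest log2FC of the domain. Atp6v0a4, known from the apical membrane of kidney intercalated cells (chr6:38025418-38101521), was listed at 25.19, 35.17 and 22.8 FPKM in IVM and at 5.04, 7.46 and 6.38 in IVO. Its IVM mean was 4.4 times its IVO mean (log2FC -1.97 ± 0.24 SE, limma adjusted p = 0.00277), and the call held without any single pool. Atp6v0a1, the widely expressed a1 gene, measured 10.6, 8.6 and 13.18 FPKM in IVM and 5.71, 7.94 and 4.0 in IVO (log2FC -0.80 ± 0.28 SE, limma adjusted p = 0.0829). Its pools did not overlap, yet the difference did not pass the test.

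Atp6v0a2, the a2 gene of endosomes and the Golgi, was at 3.98, 3.52 and 5.16 FPKM in IVM and at 4.38, 3.96 and 3.91 in IVO (log2FC -0.03 ± 0.22 SE). The groups overlapped fully. Of its 6925 exonic bases, 1128 are shared with 4930404A12Rik on the opposite strand, listed at 4.38, 6.54 and 9.94 FPKM in IVM and 1.26, 5.53 and 8.82 in IVO. Tcirg1, which codes for the a3 form of osteoclasts and does not carry the family's symbol, was listed at 2.14, 2.52 and 0.87 FPKM in IVM and at 0, 0.26 and 1.39 in IVO (log2FC -0.93 ± 0.42 SE, limma adjusted p = 0.159).

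The makeup of subunit a was compared within each pool. Atp6v0a4 made 60.1%, 70.6% and 54.3% of the summed FPKM of the 4 a genes in the IVM pools and 33.3%, 38.0% and 40.7% in the IVO pools. The share of Atp6v0a2 was 9.5%, 7.07% and 12.3% in IVM and 28.9%, 20.2% and 24.9% in IVO. Neither share overlapped between the groups, and the smallest exact p of 3 against 3 pools is again 0.1. The shares set a called gene, Atp6v0a4, against a genes that were not called, so they are no separate evidence. The log2FC of Atp6v0a2 itself was -0.03, and its higher share in IVO goes with the lower sum of the 4 genes. These shares do not depend on how a library is scaled. The summed FPKM of the 4 genes was 44.6 ± 4.53 in IVM and 16.8 ± 2.45 in IVO (mean ± SD, n = 3 pools).

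**Figure D3:**
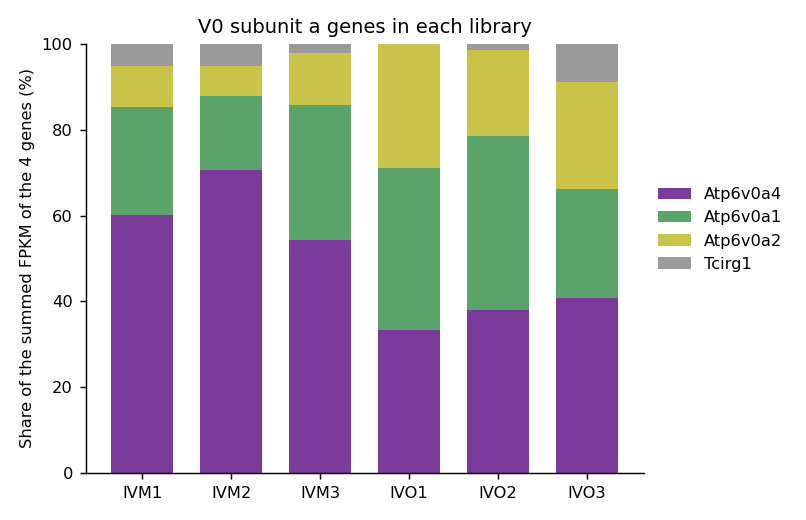
Share of the summed FPKM of the 4 genes for V0 subunit a in each pool, as stacked bars that reach 100%. Atp6v0a4 takes at least 54.3% in every IVM pool and at most 40.7% in every IVO pool, and the share of Atp6v0a2 is at least 20.2% in the IVO pools and at most 12.3% in the IVM pools.

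Atp6v0e, the small membrane subunit e (chr17:26882205-26918621), was the most abundant V0 gene, at 506.21, 406.5 and 425.72 FPKM in IVM and 208.22, 177.96 and 221.02 in IVO. It was called with a log2FC of -1.14 ± 0.17 SE (limma adjusted p = 0.0051). The groups were well apart. The listed length of this gene is only 442 bases, and once the trend of expression with gene length had been removed from each library, its log2FC was -0.79 and it was no longer called, although the adjusted p stayed at 0.0155. Atp6v0e2, its paralog, made 0.963% to 1.59% of the family's FPKM, with IVM pools at 4.14 to 5.43 FPKM and IVO pools at 2.19 to 2.87 (log2FC -0.71 ± 0.22 SE, limma adjusted p = 0.0547).

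The proton-carrying ring is built from the c subunit, coded by Atp6v0c, and the related c'' subunit, coded by Atp6v0b. Atp6v0b measured 111.06, 69.65 and 124.67 FPKM in IVM and 59.68, 60.16 and 59.19 in IVO (log2FC -0.72 ± 0.24 SE, limma adjusted p = 0.0742). Atp6v0c was listed at 107.65, 23.56 and 67.81 FPKM in IVM and at 32.93, 30.99 and 22.58 in IVO (log2FC -0.95 ± 0.51 SE, limma adjusted p = 0.229). The second IVM pool, which fell among the IVO values, set the wide error. Without it the log2FC of Atp6v0c was -1.55 and the gene was called. Atp6v0c-ps2, a processed pseudogene of Atp6v0c that was not a member, was likewise lowest of the IVM pools in the second, at 32.06, 8.35 and 24.54 FPKM in IVM and 10.21, 10.39 and 5.74 in IVO, and reads may be split between such copies. Atp6v0d1, the d subunit on which the rotor sits, was at 5.08 to 10.41 FPKM in IVM and at 4.5 to 6.05 in IVO (log2FC -0.53 ± 0.29 SE), and Atp6v0d2, its osteoclast form, stayed below 1 FPKM.

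None of the 3 accessory genes was called, and their median log2FC was -0.08. Atp6ap1, the assembly factor Ac45 (chrX:73340697-73348328), was listed at 10.9, 6.46 and 8.94 FPKM in IVM and at 4.77, 4.72 and 4.01 in IVO. All IVO pools lay below all IVM pools and the adjusted p was 0.0494 by limma, but the log2FC of -0.81 ± 0.24 SE missed the fold threshold. With the length trend removed it was -1.01 and Atp6ap1 was called. Atp6ap2, the prorenin receptor (chrX:12453960-12495037), stood at 63.37, 55.48 and 45.06 FPKM in IVM and at 52.02, 53.37 and 68.7 in IVO, with groups that overlapped (log2FC 0.09 ± 0.21 SE). That small value turned to -0.12 with the length trend removed. Atp6ap1l was at 1.64 to 3.4 FPKM (log2FC -0.08 ± 0.28 SE).

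**Figure D4:**
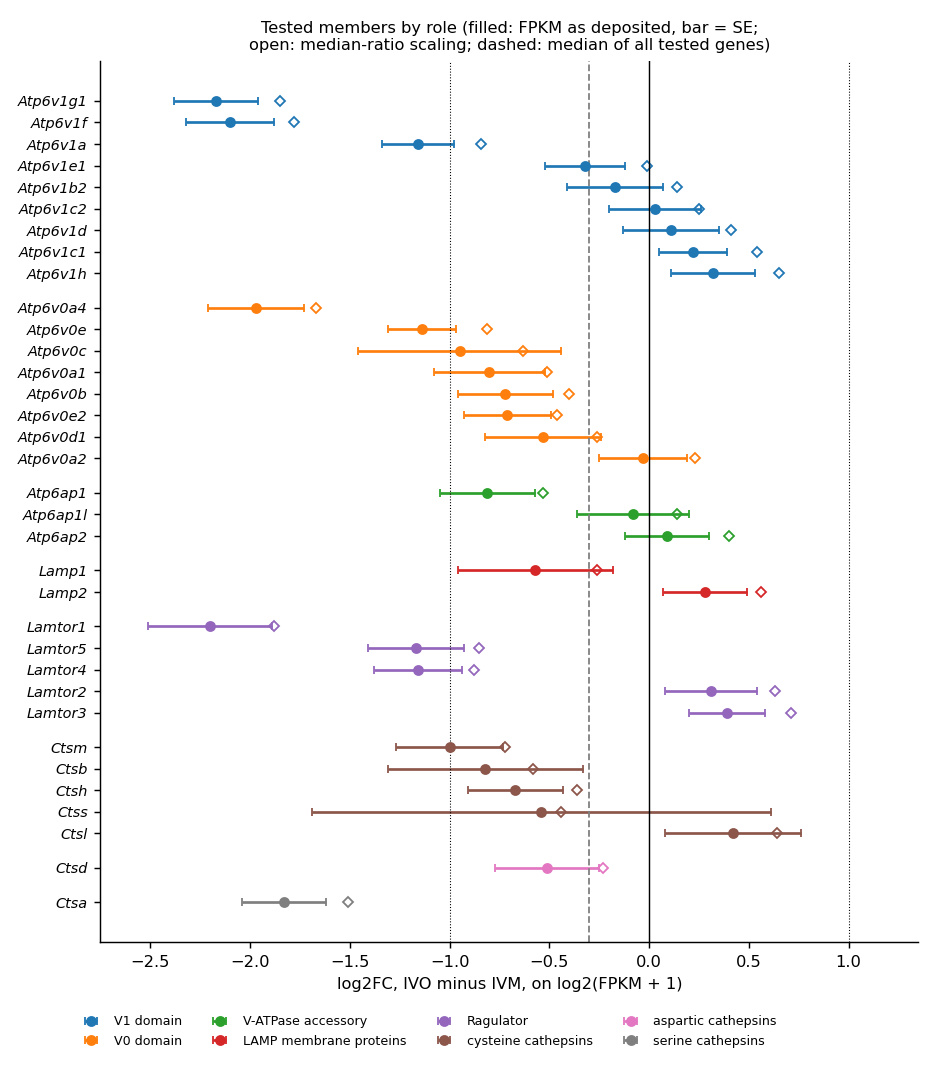
The log2FC (IVO minus IVM) of the 34 tested members, grouped by role. Filled points with SE bars are FPKM as deposited, open diamonds are the same genes under median-ratio scaling, the dashed line is the median of everything tested (-0.30) and the dotted lines mark the fold threshold. The largest negative values are those of Lamtor1, Atp6v1g1 and Atp6v1f, and no point lies beyond the threshold on the positive side.

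The 5 Ragulator genes split into 3 called lower in IVO and 2 with a positive log2FC, with a median of -1.16. Over everything tested 17.9% was called lower. Lamtor1, the lipid-anchored scaffold that wraps the other subunits and holds them on the lysosome (chr7:101555111-101575882), had the largest negative log2FC of all members as deposited. It measured 175.95, 78.7 and 150.53 FPKM in IVM and 25.04, 26.92 and 29.57 in IVO. The IVM mean was 4.97 times the IVO mean (log2FC -2.20 ± 0.31 SE, limma adjusted p = 0.00427). Even the lowest IVM pool was well above the highest IVO pool. The locus shares 608 exonic bases of 3215 with Lrrc51 on the opposite strand, a gene listed at 26.13 to 31.37 FPKM in IVM and at 0.11 to 18.96 in IVO.

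Lamtor5, one of the small roadblock-fold subunits (chr3:107186117-107191398), was listed at 194.64, 132.68 and 125.13 FPKM in IVM and at 75.31, 53.4 and 68.56 in IVO (log2FC -1.17 ± 0.24 SE, limma adjusted p = 0.0139). Its groups did not overlap, but without the first IVM pool the log2FC was -0.97 and the call was lost. Lamtor4, which pairs with Lamtor5 (chr5:138253744-138257660), was far lower, at 11.68, 8.29 and 10.42 FPKM in IVM and 4.19, 4.53 and 3.24 in IVO (log2FC -1.16 ± 0.22 SE, limma adjusted p = 0.012). With the GC trend removed its log2FC was -0.93 and it was not called. It was the least abundant Ragulator gene in every pool.

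Lamtor2 and Lamtor3 form the other roadblock pair. Lamtor3, also known as the MEK partner MP1 (chr3:137623476-137634661), measured 246.69, 160.16 and 206.19 FPKM in IVM and 260.64, 267.84 and 262.15 in IVO. The IVO pools were all above the IVM pools, but the log2FC of 0.39 ± 0.19 SE did not pass the test (limma adjusted p = 0.197). Under median-ratio scaling it was 0.71 with an adjusted p of 0.0435, below the fold threshold. Lamtor2 was at 177.64, 279.39 and 171.56 FPKM in IVM and at 259.18, 274.76 and 230.32 in IVO, with overlap (log2FC 0.31 ± 0.23 SE). Gm5900, a pseudogene copy of Lamtor3, was listed at 56.81 to 77.39 FPKM in IVM and at 68.28 to 73.75 in IVO.

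The proportions of the Ragulator mRNAs were compared within pools, where the scaling of a library cancels. Lamtor1 relative to Lamtor3 was 0.713, 0.491 and 0.73 in IVM and 0.0961, 0.101 and 0.113 in IVO. Lamtor5 relative to Lamtor2 was 1.1, 0.475 and 0.729 in IVM and 0.291, 0.194 and 0.298 in IVO. Both ratios were lower in every IVO pool than in every IVM pool, in a design whose smallest exact p is 0.1. Each sets a gene called lower against one with a positive log2FC. Their separation therefore largely follows from the choice of pairs and is no separate evidence. The protein complex holds 1 copy of each subunit.

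Of the 4 LAMP genes, 2 were tested and none was called. Lamp1, an abundant glycoprotein of the lysosomal membrane (chr8:13209121-13227360), measured 60.09, 23.38 and 66.05 FPKM in IVM and 31.7, 34.52 and 25.31 in IVO (log2FC -0.57 ± 0.39 SE, limma adjusted p = 0.346). The second IVM pool lay below the IVO range, and without it the log2FC was -1.03 and Lamp1 was called. Lamp2, its paralog and the receptor of chaperone-mediated autophagy (chrX:37488520-37545340), stood at 6.59, 4.92 and 6.55 FPKM in IVM and at 6.96, 7.93 and 7.47 in IVO. All IVO pools were above all IVM pools, with a log2FC of 0.28 ± 0.21 SE that did not pass the test (limma adjusted p = 0.38). Lamp5 did not exceed 1.24 FPKM and Lamp3, the dendritic cell form, did not exceed 0.16.

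Among the proteases, Ctsa was the most abundant and the only gene called. It codes for cathepsin A, the serine carboxypeptidase that also protects lysosomal galactosidase and sialidase (chr2:164674778-164682961). It measured 158.2, 131.76 and 146.78 FPKM in IVM and 33.53, 38.14 and 50.25 in IVO. The IVM mean was 3.58 times the IVO mean (log2FC -1.83 ± 0.21 SE, limma adjusted p = 0.00205), and the call held without any single pool. The gene shares 1252 of its 5151 exonic bases with Pltp and 649 with Neurl2, both on the opposite strand and both at or near 0 FPKM in all pools. The other serine cathepsin, Ctsg of neutrophil granules, was at 0 throughout.

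Of the 14 cysteine cathepsins, 5 were tested and none was called, with a median log2FC of -0.67. Ctsh, an aminopeptidase and the most abundant of them (chr9:89936205-89958148), was listed at 33.67, 20.28 and 26.06 FPKM in IVM and at 16.45, 18.19 and 13.81 in IVO. Its groups did not overlap, but the log2FC of -0.67 ± 0.24 SE did not pass the test (limma adjusted p = 0.0875). Ctsm, a cathepsin known from the rodent placenta (chr13:61683557-61689653), measured 11.92, 12.01 and 8.85 FPKM in IVM and 4.74, 3.52 and 7.03 in IVO. All IVO pools were lower, and with an adjusted p of 0.0378 by limma it missed the call because its log2FC, which rounds to -1.0 ± 0.27 SE, was just short of the threshold. Cts3, another placental cathepsin that the naming rule did not take, was at 36.05, 41.34 and 30.4 FPKM in IVM and at 20.59, 10.77 and 13.1 in IVO and was called (log2FC -1.26 ± 0.27 SE, limma adjusted p = 0.0172). The call of Cts3 was lost under median-ratio scaling (-0.95) and without the first IVM, the second IVM or the second IVO pool (-1.25, -1.16 and -1.07).

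The cathepsins best known from other tissues were low in these oocytes. Ctsb was at 11.21, 2.34 and 3.9 FPKM in IVM and at 3.19, 1.36 and 2.69 in IVO, a spread that gave a log2FC of -0.82 ± 0.49 SE (limma adjusted p = 0.279). It shares 1184 of its 7674 exonic bases with Fdft1 on the opposite strand, listed at 29.06 to 36.15 FPKM in IVM and 6.88 to 15.71 in IVO. Ctsd, the major aspartic protease of lysosomes (chr7:141929646-141941775), measured 10.15, 6.06 and 10.86 FPKM in IVM and 5.16, 6.27 and 6.19 in IVO (log2FC -0.51 ± 0.26 SE, limma adjusted p = 0.199). The second IVM pool of Ctsd lay within the IVO range. Ctse, Ctso and Ctsq were at 0 in all pools, and Ctsf, Ctsj, Ctsk, Ctsr and Ctsw were listed at 0.13 FPKM or less.

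Ctsl and Ctss were low in most pools, and each had a pool that stood apart. Ctsl, a broad endopeptidase of lysosomes (chr13:64507151-64518704), had the most positive log2FC of all members as deposited, with 2.41, 1.52 and 1.7 FPKM in IVM and 1.94, 2.11 and 5.09 in IVO (log2FC 0.42 ± 0.34 SE, limma adjusted p = 0.419). The third IVO pool stood apart, and without it the log2FC was 0.08. Ctss, the cathepsin of antigen-presenting cells, was listed at 0, 17.28 and 0.05 FPKM in IVM and at 0.25, 0.15 and 3.33 in IVO. Its single high value came from the second IVM pool, and without that pool its mean was too low for the test.

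The third IVO pool also held the highest Ctsc and Ctsz, at 1.0 and 0.37 FPKM. In the same pool the leukocyte genes Lyz2, Tyrobp and Fcer1g stood at 15.67, 7.12 and 3.89 FPKM, against at most 1.04, 1.97 and 1.07 in the other pools. Of the 10 listed markers, all but C1qb and Itgam were highest in this pool. C1qb was at 3.64, 1.29 and 3.29 FPKM in IVM and at 1.54, 0.34 and 2.6 in IVO. Itgam reached 1.37 FPKM in the first IVM pool and at most 0.04 in IVO. The summed FPKM of 10 macrophage and leukocyte markers was 2.22 to 5.16 in IVM and 2.05 to 33.1 in IVO, while the defining genes Ptprc and Adgre1 did not exceed 0.16 and 0.29 FPKM. The second IVM pool, where Ctss was high, had the lowest marker sum of its group, and C1qb was the largest part of that sum in every IVM pool. In pooled material, more cells of a type and more RNA per cell cannot be told apart, and the part of such cells in these 4 cathepsins was not tested.

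**Figure D5:**
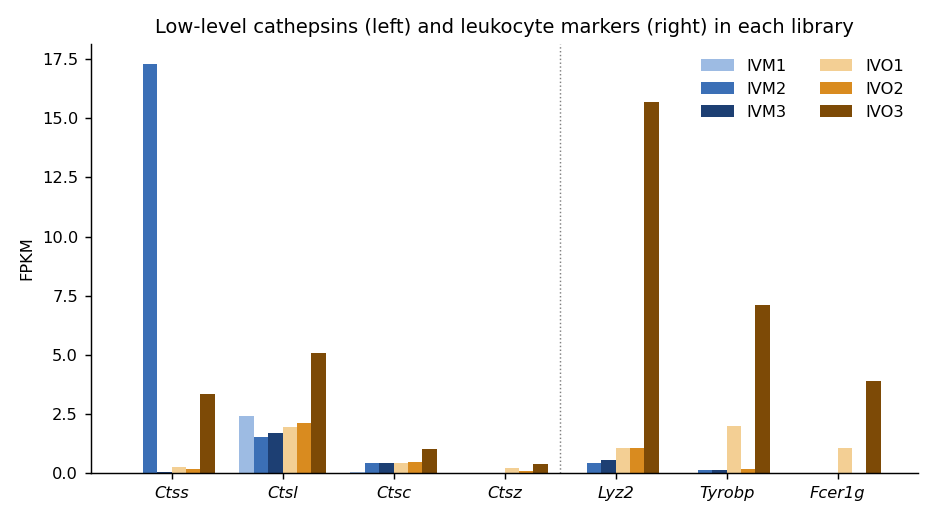
FPKM of 4 low cathepsins (left of the dotted line) and 3 of the 10 leukocyte markers (right) in each of the 6 pools, as bars from 0. The third IVO pool is the highest of the IVO pools in all 7 genes, and the highest bar of Ctss, 17.28 FPKM, is in the second IVM pool.

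Among genes of the lysosome and of V-ATPase control outside the naming rule, 155 of 157 listed symbols were found and 99 were tested. Of the 99, 19 (19.2%) were called lower in IVO and 1 higher, and the median log2FC was -0.21. For everything tested the share called lower was 17.9% and the median -0.30, and for the Ensembl genes tested, to which all the listed genes belong, they were 14.6% and -0.18. For V-ATPase assembly and regulators, 1 of 11 tested genes was called, Ccdc115, an assembly factor, with 73.37 to 127.14 FPKM in IVM and 20.59 to 34.3 in IVO (log2FC -1.80 ± 0.30 SE).

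For mTORC1 and TFEB signalling, 3 of 21 were called lower, against 17.9% of everything tested, and the median log2FC was 0.08. Rragd, a Rag GTPase that Ragulator anchors, was at 172.62 to 205.65 FPKM in IVM and at 46.3 to 55.23 in IVO (log2FC -1.88 ± 0.17 SE). The other Rag genes were not called. Rragc (log2FC 0.35 ± 0.17 SE) and Rraga (0.34 ± 0.16 SE) had all IVO pools above all IVM pools, and Rragb had -0.27 ± 0.29 SE. Tsc2, which restrains mTORC1 through Rheb, had a log2FC of -1.84 ± 0.35 SE, and Slc38a9, the arginine sensor that binds Ragulator, had -1.39 ± 0.31 SE. Without the third IVO pool Slc38a9 was not called (-1.21, limma adjusted p = 0.052). The transcription factor Tfeb measured 23.19, 32.17 and 26.2 FPKM in IVM and 13.55, 19.67 and 16.79 in IVO. Its groups did not overlap, and the log2FC of -0.68 ± 0.22 SE did not pass the test (limma adjusted p = 0.0685). Tfe3, its relative, was at 2.66 to 3.54 FPKM throughout (log2FC -0.02 ± 0.22 SE).

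BORC and ARL8, which position lysosomes along microtubules, gave 1 call in each direction among 9 tested genes, and neither held under every setting. Arl8b, the small GTPase that recruits kinesin, was listed at 32.4, 25.32 and 30.75 FPKM in IVM and at 71.52, 65.27 and 57.32 in IVO, and was the 1 related gene called higher (log2FC 1.11 ± 0.19 SE, limma adjusted p = 0.00801). With the length trend removed the log2FC of Arl8b was 0.84, and with the GC trend removed 0.96, so that no related gene was called higher in those fits. Bloc1s1, a shared BORC subunit, was called lower at -1.21 ± 0.28 SE, but not under median-ratio scaling (-0.95) and in only 2 of the 6 fits that left out 1 pool, those without the second IVM pool and the first IVO pool. Of 24 other hydrolases and cofactors tested, 7 were called lower. Idua, the iduronidase of glycosaminoglycan breakdown, had the largest log2FC of them, with 639.85, 451.39 and 520.74 FPKM in IVM and 15.7, 15.97 and 33.97 in IVO (log2FC -4.63 ± 0.32 SE, limma adjusted p = 6.53e-04). Gla, a galactosidase, had a log2FC of -2.90 ± 0.26 SE, although its ratio of IVM to IVO means, 43.1, was above that of Idua, 24.6, since the added 1 shrinks the log2FC of low genes. The log2FC of Naglu, a glucosaminidase, was -1.73 ± 0.31 SE.

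Of 17 other lysosomal membrane and transport proteins tested, 4 were called lower. Ostm1, the partner of a lysosomal chloride transporter, had a log2FC of -1.51 ± 0.24 SE and was called whichever pool was left out. Gpr137b had -1.59 ± 0.36 SE and was not called without the first IVM, the third IVM or the first IVO pool (-1.37, -1.42 and -1.52). Hgsnat, an acetyltransferase of heparan sulfate breakdown, was at 11.88, 3.1 and 1.78 FPKM in IVM and at 0.09, 0.09 and 0.88 in IVO (log2FC -2.01 ± 0.58 SE, limma adjusted p = 0.0433). Its call was lost under median-ratio scaling (limma adjusted p = 0.0632) and in 5 of the 6 fits that left out 1 pool, the exception being the third IVM pool, with log2FC from -2.47 to -1.37. None of the 12 tested genes that deliver enzymes to lysosomes was called. The cystatins inhibit cysteine cathepsins, and 2 of their 4 tested genes were called lower. Cst3, the main secreted cystatin, was listed at 333.75, 216.0 and 157.13 FPKM in IVM and at 13.31, 9.59 and 18.11 in IVO (log2FC -3.98 ± 0.34 SE, limma adjusted p = 0.00106). Its IVM mean was 17.2 times its IVO mean, and in IVM it exceeded the summed FPKM of the 14 cysteine cathepsins, 41.1 to 59.4, in every pool. In IVO Cst3 was below that sum, 26.0 to 33.4, in every pool. Csta2, a cytosolic cystatin with a listed length of 294 bases, was called at -1.08 ± 0.19 SE, but not with the length trend removed (-0.50, limma adjusted p = 0.151), under median-ratio scaling (-0.77) or without the third IVO pool (-0.98). Cstb had a log2FC of -0.41 ± 0.48 SE.

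Gene length and GC content ran along with the log2FC. Of the 14 tested members with a listed length under 1500 bases, 6 were called lower with a median log2FC of -0.97, and of everything tested at that length 24.3% was called with a median of -0.57. Of the 20 longer members, 3 were called with a median of -0.52, against 11.7% and -0.13. Across the 34 tested members, which share the same 6 libraries and are not independent, Spearman's rho of log2FC with length was 0.26 and with GC content -0.40, and across Ensembl genes it was 0.10 (n = 13154) and -0.23 (n = 13052). With the length trend removed from each library, 11 members (32.4%) were called, against 17.4% of everything tested. Atp6v0e left the calls and Atp6v0a1, Atp6ap1 and Ctsm joined them. With Ensembl genes only and the GC trend removed, 8 members were called, with Lamtor4 (-0.93) and Atp6v0e (-0.98) lost and Ctsm (-1.22) gained. No share over everything tested was worked out for that fit.

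The second IVM pool was the lowest of its group in 19 of the 34 tested members, the first in 4 and the third in 11. It was most below the mean of the other IVM pools in Atp6v0c (-1.82 on the log2 scale), Lamp1 (-1.39), Ctsb (-1.21) and Lamtor1 (-1.04). Its deviation had a Spearman's rho with GC content of -0.39 across the 34 members and of -0.26 across 13052 Ensembl genes. Without that pool 11 members were called, the 9 with Lamp1 and Atp6v0c added. The share of everything tested was not worked out without that pool.

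Depth was not given with the matrix and was inferred from the steps between low values as 16500000 to 19500000 fragments a pool, with 78.0% to 81.1% of the low values within 0.15 of a whole fragment. At that depth, 3 fragments on a gene of 1000 bases are worth 0.195 to 0.233 FPKM, so the members listed at 0 were not detected rather than shown to be absent. Of the 12 oocyte markers found, all were tested and 5 were called lower in IVO, against 17.9% of everything tested. Their summed levels were 25600 to 31900 FPKM in IVM and 24600 to 29400 in IVO. The summed FPKM of 20 cumulus and granulosa markers was 31.1 to 61.8 in IVM and 34.5 to 57.7 in IVO, with 4 of them at 0 in all pools and none of the 3 tested, Amhr2, Cyp19a1 and Fshr, called. These 3 carried the sum. The cumulus expansion genes Has2, Ptx3 and Tnfaip6 were under the filter but higher in every IVO pool than in every IVM pool. They were the only ones of the 20 to be so. The 9.62% of everything tested that lay so covers genes above the filter, and no share was worked out for genes under it. Tnfaip6 was at 0 to 0.14 FPKM in IVM and 0.34 to 0.49 in IVO, Has2 at 0.04 to 0.14 and 0.17 to 0.37, and Ptx3 at 0 to 0.03 and 0.07 to 0.17. Ptgs2 overlapped between the groups, at 0.04 to 0.19 FPKM in IVM and 0.16 to 0.5 in IVO. Inha, which also overlapped, leaned the other way, at 0.16 to 0.86 and 0.09 to 0.41. The part of such cells in the members' levels was not tested. Markers of oviduct epithelium (7 genes) summed to 2.93 to 3.57 FPKM in IVM and 3.4 to 6.11 in IVO, and those of erythrocytes (5 genes) to at most 0.98 and 5.82.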

How the data were processed

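RNA-seq libraries of 6 oocyte pools (3 IVM, 3 IVO; groups and replicate numbers from the sample titles) were made with the SMART-Seq v4 and Nextera XT kits, which do not mark strand. Read filtering by the authors used SeqPrep and Sickle, alignment to GRCm39 used HISAT2 2.1.0, and RSEM 1.3.3 gave the FPKM per gene that they deposited. The deposited matrix also holds a gene length in bases and a mean for each group, which was not used. The authors tested counts with DESeq2 1.24.0. FPKM is not a count, so limma 3.58.1 (R 4.3.3; lmFit and eBayes with trend) was fitted to log2(FPKM + 1), for genes with a mean of at least 1, with Benjamini-Hochberg adjustment over all 18818 tested. A log2FC on this scale understates the change of low genes. Pools are separate samples, and p-values measure the spread between them. The script was tested on simulated data. Gene coordinates and exon overlaps are from GENCODE on GRCm39, and promoters are from RefSeq on GRCm38.p6.

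The members and gene lists were chosen with earlier results of these data known. Values for each pool are given for members called, for those with non-overlapping groups and an adjusted p under 0.05, and for the highest mean and both extremes of log2FC in each role. For related lists up to 3 called genes each are named, with Tfeb, Tfe3, Cst3, Cstb and Tcirg1. Other genes given by pool, such as Atp6v0c, Ctss and the leukocyte markers, were chosen after their values were seen. The ratios of Atp6v1a to Atp6v1b2, Lamtor1 to Lamtor3 and Lamtor5 to Lamtor2 were not planned in advance. Alternatives covered the pseudocount, the filter, the scaling, the variance trend, a replicate block, length and GC trends, Ensembl genes only and leaving out each pool.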

Additional observations from a re-analysis of the deposited data

How the results depend on the processing

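The members called, 9 as deposited, fell to 5 with median ratios, with quantile normalization, with equal library sums (each library scaled to the same sum), and with median-ratio scaling of Ensembl genes only. The other settings that kept all 6 pools gave 6 to 11, and leaving out 1 pool gave 8 to 11. Shares of everything tested were worked out only as deposited, under median ratios and with the length trend removed. The counts under the other settings therefore cannot be set against a general share. Under median-ratio scaling Lamtor4, Lamtor5, Atp6v1a and Atp6v0e were lost. The Ragulator count fell from 3 to 1 under the same 4 settings and with the length trend removed together with median-ratio scaling. Leaving out 1 pool gave 2 to 3 Ragulator calls. The V0 count fell from 2 to 1 under those 5 settings, with the length trend removed together with a replicate block, and with Ensembl genes only and the GC trend removed. Leaving out 1 pool gave 2 to 3 V0 calls. The accessory genes gave 1 call in place of 0 (Atp6ap1) with the length trend removed and with no fold threshold. The cysteine cathepsins gave 1 in place of 0 with a pseudocount of 0.1, with the length trend removed, with Ensembl genes only and the GC trend removed, and with no fold threshold. Leaving out 1 pool gave 0 to 1 cathepsin calls, the 1 being Ctsm without IVO replicate 3, and 0 to 1 LAMP calls, the 1 being Lamp1 without IVM replicate 2. The related genes called, 20 as deposited, were 11 at a mean FPKM of at least 5, where fewer genes were tested, 13 when scaled to the same sum, and 13 to 20 with 1 pool left out, the lowest without IVM replicate 1. Quantile normalization gave 16 related calls, of which 10 were lower. The combined scaling, length and GC settings were chosen after seeing the data. The causes of these shifts were not tested beyond the settings themselves.

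Over all alternatives the log2FC of the 34 tested members kept its direction and call in 608 cases, lost the call in 24, gained it in 8 and changed sign in 32, none of the last in a called member. Under median-ratio scaling, quantiles, equal sums, and Ensembl genes only with median ratios, in the same order, Atp6ap1l became 0.14, 0.35, 0.14 and 0.07, Atp6v0a2 became 0.23, 0.45, 0.24 and 0.15, and Atp6v1b2 became 0.14, 0.31, 0.16 and 0.04. Atp6ap1l was 0.0 with the length trend removed and median-ratio scaling. Atp6v1e1 became 0.17 under quantile normalization and 0.01 when scaled to the same sum. With the length trend removed, with or without a replicate block, Atp6ap2 became -0.12, Atp6v1c2 -0.15 and Atp6v1d -0.14. With Ensembl genes only and the GC trend removed, Atp6v0a2 became 0.10 and Atp6v1d -0.08. Ctss became 0.07 with a pseudocount of 0.1. With 1 pool left out, the log2FC crossed 0 in Atp6ap1l (-0.25 to 0.12), Atp6ap2 (-0.04 to 0.20), Atp6v0a2 (-0.12 to 0.10), Atp6v1c2 (-0.08 to 0.09) and Atp6v1d (-0.04 to 0.29).

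The correlations of same-numbered deviations were -0.06, -0.02 and -0.11, so no pairing by replicate number was seen. With 3 pools a group they cannot show whether same-numbered pools shared a collection day or batch. With the replicate number as a block, 9 members were called, as without it, and the related genes called numbered 16. The inferred depth limits what can be said of members below 1 FPKM, and groups of 3 pools limit the precision of all folds.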
